A study of Mus musculus with 2 samples.

Results

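The keratin family was followed in implantation sites, the swellings of the pregnant uterus in which embryo and decidua lie together. Its members were all probe sets with a single gene symbol made of Krt and a number, which leaves out the keratin-associated Krtap and Krtcap genes. That rule found 49 of 22626 probe sets and 40 of 12393 genes. RNA came from 4-month-old female mice on a C57Bl/6J X OLA129 background, taken on day 8 of pregnancy. The control group had 1 Affymetrix array and the Cbs null group, homozygous for loss of cystathionine beta-synthase, had 1 array. The labels give the genotype of the females and not that of the conceptus in each site, and they do not say whether animals or sites were pooled. Since each genotype rests on 1 array, no difference could be checked against replicates or tested, and each describes these 2 arrays. The study asked which transcripts differ in implantation sites when the enzyme is missing, and here the simple epithelial keratins were set against the cornified and hair keratins.

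Keratins are the intermediate filament proteins of epithelial cells. A filament is built from pairs of an acidic type I and a basic type II keratin, so the genes work in partners, and each kind of epithelium uses its own pairs. Krt8 and Krt18 form the pair of simple epithelia, which in the pregnant uterus include the luminal and glandular epithelium, and they are also made by trophoblast and visceral endoderm. Krt7 and Krt19 are further keratins of simple and ductal epithelia, and Krt5 and Krt14 form the pair of basal cells in stratified epithelia. Krt1 and Krt10 replace that pair in cornifying epidermis, and the hair keratins, rich in cysteine, harden hair and nail. Anchoring to desmosomes and hemidesmosomes joins keratin filaments into a network that bears mechanical load. The 40 genes comprised 20 of type I and 20 of type II, and they were grouped by these roles into 5 simple epithelial, 3 basal, 4 stress-induced, 3 mucosal, 4 cornified, 6 follicle sheath and 13 hair keratins, with 2 left unclassed. The cornified, follicle sheath and hair groups together held 23 genes. Another 14 keratin genes of the RefSeq table had no probe set with a single symbol here. They included Krt9 of palm and sole skin and Krt24.

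The promoters of the simple keratins Krt8, Krt18 and Krt7 are shown beside that of the hair keratin Krt84, since these genes carry the contrast in signal described below. Each sequence is the 250 bases before the RefSeq gene start in GRCm38.p6, 5′ to 3′ on the strand of the gene. Capitals mark 3 motifs that were searched on both strands, TATAAA (the TATA box), GGGCGG (the GC box bound by Sp1) and CACCTG (the E-box bound by Snail repressors). The windows are chr15:102004343-102004592 on the minus strand for Krt8, chr15:102027966-102028215 on the plus strand for Krt18, chr15:101412153-101412402 on the plus strand for Krt7 and chr15:101532821-101533070 on the minus strand for Krt84.
Krt8: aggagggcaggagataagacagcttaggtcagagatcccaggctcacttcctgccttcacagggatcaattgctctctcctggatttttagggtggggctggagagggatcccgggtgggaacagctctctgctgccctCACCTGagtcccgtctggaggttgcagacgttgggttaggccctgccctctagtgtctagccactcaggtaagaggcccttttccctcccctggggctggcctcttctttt
Krt18: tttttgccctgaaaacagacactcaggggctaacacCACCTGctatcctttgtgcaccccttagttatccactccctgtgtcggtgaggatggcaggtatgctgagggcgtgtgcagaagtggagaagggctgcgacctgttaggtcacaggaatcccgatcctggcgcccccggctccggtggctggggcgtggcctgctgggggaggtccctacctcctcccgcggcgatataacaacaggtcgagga
Krt7: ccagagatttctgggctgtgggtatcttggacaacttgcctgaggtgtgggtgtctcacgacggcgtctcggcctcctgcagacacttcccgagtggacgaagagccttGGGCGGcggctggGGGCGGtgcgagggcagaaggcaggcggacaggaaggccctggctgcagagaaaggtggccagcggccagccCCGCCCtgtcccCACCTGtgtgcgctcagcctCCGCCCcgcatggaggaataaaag
Krt84: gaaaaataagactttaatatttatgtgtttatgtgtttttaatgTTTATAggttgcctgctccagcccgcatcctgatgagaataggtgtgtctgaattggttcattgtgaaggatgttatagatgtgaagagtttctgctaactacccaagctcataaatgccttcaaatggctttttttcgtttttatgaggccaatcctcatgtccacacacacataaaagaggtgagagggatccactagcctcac
CACCTG stood in all 3 of these simple keratin promoters, beginning 111 bases before the start in Krt8, 214 in Krt18 and 44 in Krt7. Krt7 also held 4 GC boxes, while Krt8, Krt18 and Krt84 held none, and Krt84 had a TATA box match on the reverse strand 206 bases before the start. In Krt8 a TATAAA begins at the last base printed and runs past the annotated start, overlapping its reverse match TTTATA. Promoter windows of 300 bases, 250 before and 50 after the start, were found for 25 of the 40 keratin genes, in 26 entries. TATAAA was present in 13 of the 26 against 13.6% of all 32851 promoters in the table, in 2 of 4 entries of simple keratins and in 10 of 16 entries of cornified, follicle sheath and hair keratins. GGGCGG was present in 2 of 26 (7.69%) against 35.7% of all promoters, in 1 of the 4 and 1 of the 16. CACCTG was present in 10 of 26 (38.5%) against 20.2%, in 3 of the 4 and 5 of the 16. Matches describe letters in these windows and are not evidence of binding.

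Simple epithelial keratins gave clear signal on both arrays, while 13 of 23 cornified, follicle sheath and hair keratins lay under the floor set here on both arrays. Values below are signal intensities as deposited, on a linear scale that is comparable between arrays for the same probe set but not between probe sets. Signals under 14.3, the floor taken at the 25th percentile, have no order, and a gene was counted as bright where the mean of its 2 signals reached the median of all probe sets, 70.5. Of the 5 simple keratins 4 were bright, and the other, Krt20, was above the floor on 1 array. Of the 23 cornified, follicle sheath and hair keratins 2 were bright, and 13 (56.5%) lay below the floor on both arrays, against 18.7% of all genes. Among all genes 57.1% were bright. None of the 3 basal, 4 stress-induced or 3 mucosal keratins was bright. In all 8 of 40 keratin genes were bright, namely Krt7, Krt8, Krt18, Krt19, Krt23, Krt80, Krt81 and Krt84. At the limit, Krt80 lay just inside with a mean signal of 70.6, and Krt10, with 60.95, was the nearest gene outside.

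**Figure D1:**
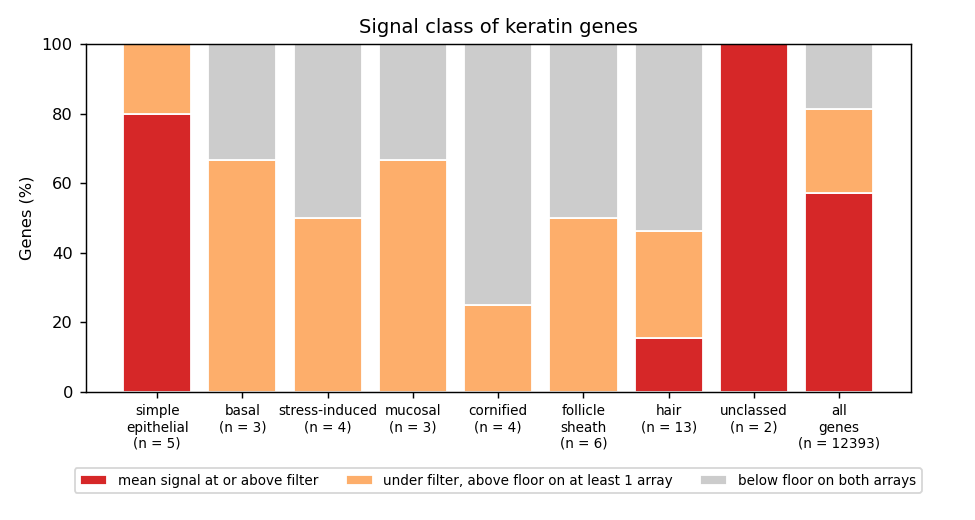
Percent of the genes in each keratin group, and of all 12393 genes, that were bright (mean signal at least 70.5), under that limit but above the floor of 14.3 on at least 1 array, or below the floor on both arrays. Of the simple epithelial keratins 4 of 5 were bright, against 2 of 13 hair keratins and none of the basal, stress-induced, mucosal, cornified and follicle sheath groups.

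**Figure D2:**
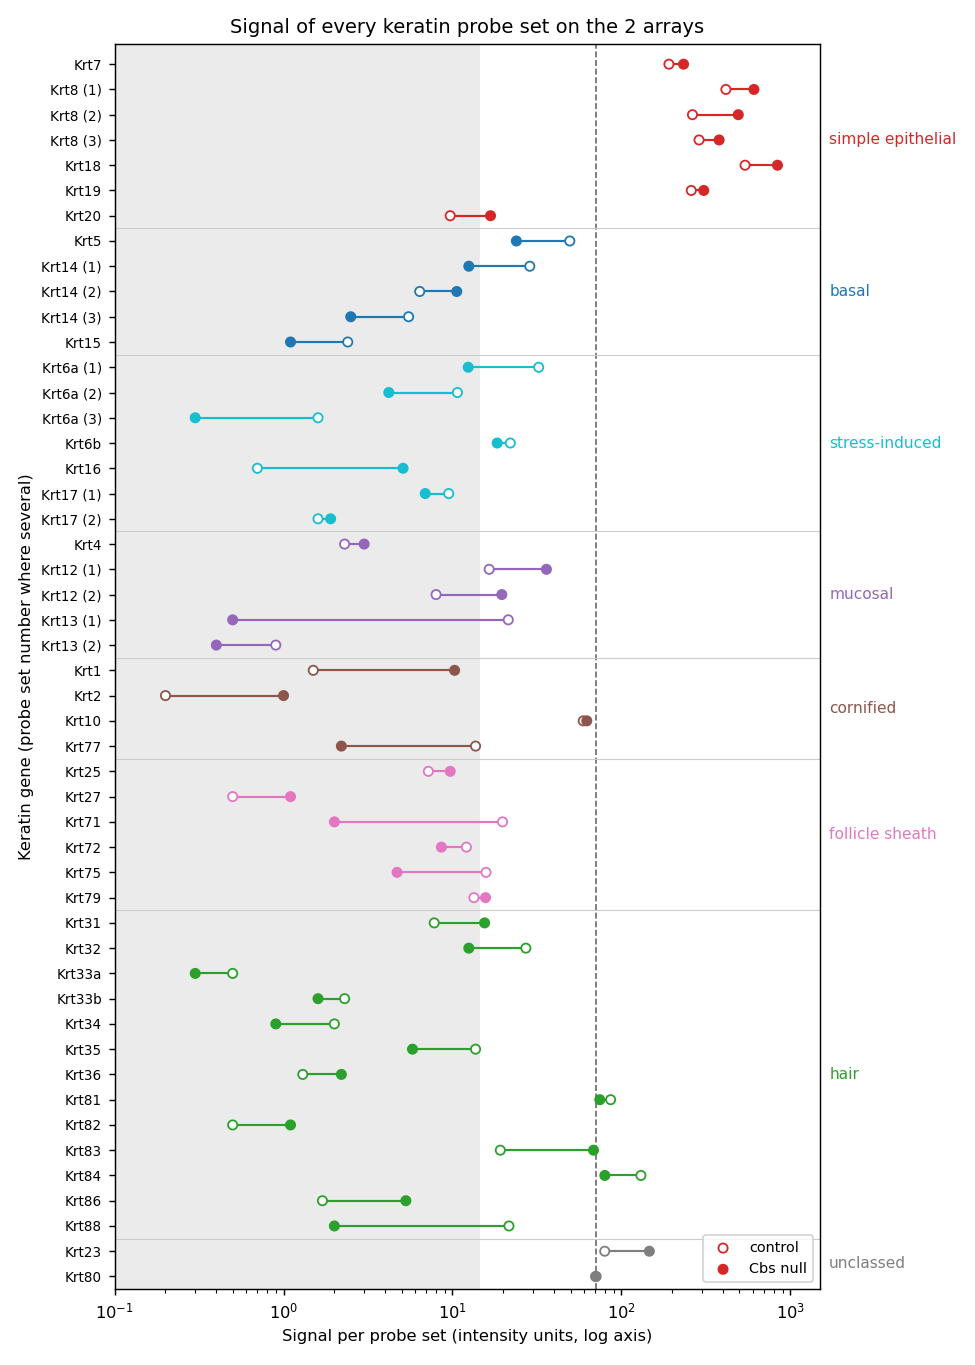
Signal of each of the 49 keratin probe sets in control (open) and Cbs null (filled), on a log axis in intensity units. The grey area lies below the floor of 14.3 and the dashed line is the limit of 70.5. Signals are to be compared within a row only, and all 6 probe sets of Krt7, Krt8, Krt18 and Krt19 were higher in Cbs null.

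Simple epithelial keratins were all higher on the Cbs null array, by less than 2-fold. Krt18, the type I member of the simple pair, read 539.9 on the control array and 839.6 on the Cbs null array, a 1.56-fold difference (log2 ratio 0.64). Its type II partner Krt8 read 415.5 and 609.0 in its brightest probe set, 1.47-fold higher (log2 ratio 0.55). The other 2 Krt8 probe sets read 263.5 and 492.0, and 288.2 and 379.1, with log2 ratios of 0.90 and 0.40. All 3 therefore pointed the same way, with a mean of 0.62 ± 0.26 (SD, n = 3 probe sets on the same arrays, which are not replicates). The suffixes of the 3 mark probes that can match more than 1 transcript, and a Krt8 pseudogene exists, so their share of other sequences is uncertain. The log2 ratio of Krt8 minus that of its partner Krt18 was -0.09, smaller in size than the SD of 0.30 seen between the 2 brightest probe sets of the same gene over 2284 genes. In the RefSeq table the 2 genes are near neighbours, with 2 noncoding RNA genes between them.

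Krt7 and Krt19 differed less between the arrays. Krt19, a type I keratin without the usual tail domain, read 259.2 and 307.3, in the same order, 1.19-fold higher (log2 ratio 0.25). Krt7 read 191.2 and 233.4, 1.22-fold higher (log2 ratio 0.29), in a single probe set whose suffix marks possible further matches. Krt20, a keratin of gut and urinary epithelium, read 9.7 and 16.8, below the floor in control and just above it in Cbs null, so its ratio of 0.23 is only a bound. The median log2 ratio of the 5 genes was 0.29, and none was at least 2-fold apart, where a 2-fold or larger difference was found upward in 0.622% and downward in 0.283% of bright genes. A ratio above 0 was found for 55.0% of all 7079 bright genes and for each of the 4 bright simple keratins.

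The size of these ratios was read against genes of like brightness. In the brightest tertile of bright genes 95% of ratios lay between -0.41 and 0.46, and Krt18 and Krt8 lay above that range, at percentiles 98.6 and 98.2 of the tertile, Krt8 by its brightest probe set. In the middle tertile the range was -0.42 to 0.54, and Krt7 and Krt19 lay inside it, at percentiles 89.0 and 85.3. Of the other Krt8 probe sets, the one with a ratio of 0.40 lay inside its tertile's range, at percentile 94.5, and the one with 0.90 lay above its own, at percentile 99.3. These positions compare single genes on 2 arrays and do not measure variation between animals.

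**Figure D3:**
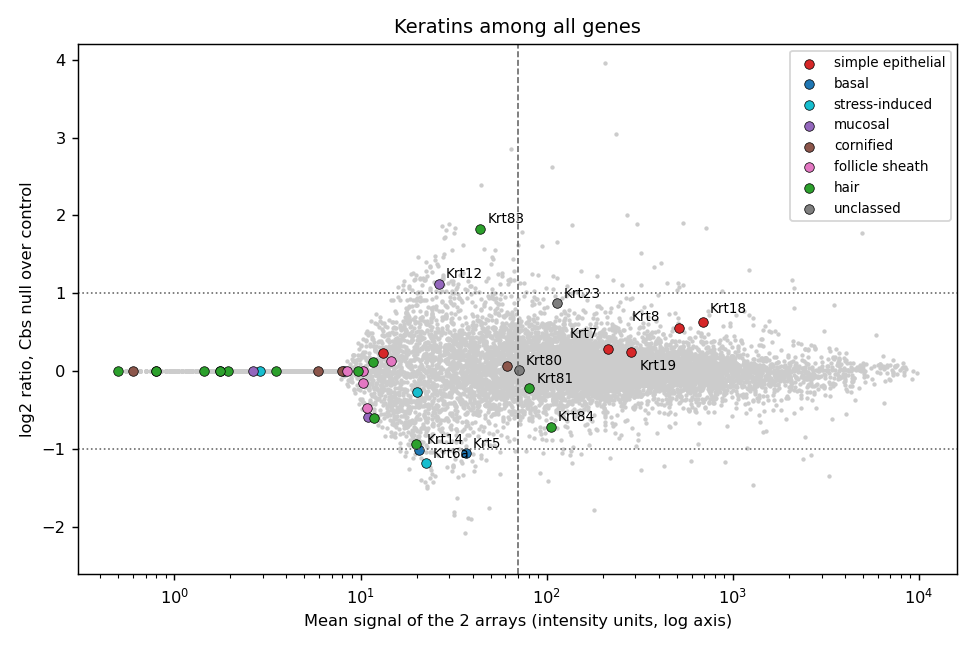
Log2 ratio of Cbs null over control against mean signal (log axis) for all 12393 genes in grey, 1 probe set per gene, with the 40 keratins in colour by group. The dashed line is the limit of 70.5 and the dotted lines are 2-fold differences. Krt18 and the brightest Krt8 probe set sit at the upper edge of the genes of like signal, Krt84 at the lower edge, and the keratins past 2-fold all lie left of the dashed line.

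The 2 bright hair keratins pointed the other way. Of all 13 hair keratins 4 had a ratio below 0 and 2 above 0, and the highest was 1.83 in the dim Krt83. Krt84, a type II keratin of nail and of tongue papillae, read 130.5 on the control array and 79.8 on the other, 1.64-fold lower (log2 ratio -0.71). It stood at percentile 1.2 of the dimmest tertile of bright genes, whose 95% range was -0.53 to 0.66. Krt81, a type II keratin of the hair cortex, read 86.4 and 74.5 (log2 ratio -0.21), inside that range. Both rest on 1 probe set, so the signal has no second measure within the array. The median over the 23 cornified, follicle sheath and hair keratins was 0.00, because 13 of them were at the floor on both arrays and have no ratio to give. The difference between the medians of the simple group and this group was 0.29 over all members, and 0.88 over the 4 and 2 bright members.

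Genes of a skin and follicle list were dim, unlike Krt84 and Krt81. Of 10 such genes on the array, Krt5 and Krt14 among them, none was bright and 4 were below the floor on both arrays. Their signals summed to 174.0 in control and 118.4 in Cbs null, a sum that includes values under the floor. It also includes Krt5 and Krt14, so it is not a measure separate from the keratins. The follicle genes S100a3 and Padi3 and the hair keratin-associated gene Krtap8-1 read 7.5, 8.6 and 1.0 in control and 1.8, 5.9 and 0.7 in Cbs null. Lor and Tchh were above the floor on both arrays, at 19.6 and 27.3, and at 18.4 and 17.9. Outside this list, Dmkn and Krtdap of the cornified envelope list were bright. They read 825.3 and 212.3 in control and 373.1 and 125.9 in Cbs null. Trp63, the master factor of stratified epithelia, read 15.7 and 11.1, and Hoxc13, a regulator of hair keratin genes, read 6.7 and 3.8. The other 11 hair keratins were not bright, and 7 of them were below the floor on both arrays. The other 4 were Krt83 at 19.2 and 68.4, Krt32 at 27.2 and 12.5, Krt88 at 21.6 and 2.0, and Krt31 at 7.8 and 15.5.

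Krt23 and Krt80 were bright without belonging to a group above. Krt23, an acidic type I keratin, read 79.7 in control against 146.4 in Cbs null, 1.84-fold higher (log2 ratio 0.88), at percentile 98.7 of the dimmest tertile. It had the highest ratio among the representing probe sets of the 8 bright keratins. Krt80, a type II keratin found near desmosomes of many epithelia, read 70.3 and 70.9, a log2 ratio of 0.01 that was slightly below 0 after quantile normalization, centring on the median or removal of a loess trend. Thus the 8 bright keratins comprised 6 with a ratio above 0 and 2, both hair keratins, below 0.

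Differences of 2-fold or more occurred only among dim keratins. Krt83, a type II hair keratin, read 19.2 in control against 68.4 in Cbs null, 3.56-fold higher (log2 ratio 1.83). Hair keratins such as Krt81, Krt83 and Krt86 are close in sequence, so how these probe sets share signal is uncertain, but Krt81 and Krt83 differed in direction on these arrays. Krt12, the keratin of corneal epithelium, read 16.5 and 36.0 in its brighter probe set, 2.18-fold higher, and 8.0 and 19.6 in the other, where the control value was below the floor. Both Krt12 values rest on signals near the floor.

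Basal and stress-induced keratins were lower on the Cbs null array where they could be measured. Krt5 read 49.5 in control against 23.9 in Cbs null, 2.07-fold lower (log2 ratio -1.05). Its partner Krt14 read 28.7 and 12.5 in its brightest probe set, at least 2.01-fold lower against the floor, but its other 2 probe sets were below the floor on both arrays (6.4 and 10.6, and 5.5 and 2.5). Krt15, another basal keratin, read 2.4 and 1.1. Krt6a, a keratin of wounded and hyperproliferative epithelium, read 32.4 and 12.4, at least 2.27-fold lower against the floor, with its other 2 probe sets below the floor on both arrays. Krt6b, its close relative, read 22.0 and 18.4, and the type I partners Krt16 and Krt17 were below the floor on both arrays.

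Thus 2 of the 32 dim keratins reached a 2-fold higher signal in Cbs null (6.25%) and 3 a 2-fold lower one (9.38%), where the same held for 1.98% and 1.11% of the 5314 dim genes. Over all 12393 genes the shares were 1.2% and 0.637%. When the floor was raised to the 40th percentile, none of the 5 was 2-fold apart, so these counts rest on signals too dim to size a difference.

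The remaining keratins gave little to compare. Krt10, the type I keratin of cornifying epidermis, read 59.5 in control and 62.4 in Cbs null (log2 ratio 0.07), while its partner Krt1 read 1.5 and 10.3, below the floor on both arrays. The cornified keratins Krt2 and Krt77 were also below the floor on both. Among mucosal keratins Krt4 was below it on both arrays, and Krt13 read 21.4 in control against 0.5 in Cbs null in its brighter probe set, at least 1.5-fold lower against the floor. The follicle sheath keratins Krt25, Krt27 and Krt72 were below the floor on both arrays, and Krt71, Krt75 and Krt79 were each above it on 1. Krt71 read 19.8 and 2.0, Krt75 read 15.8 and 4.7, and Krt79 read 13.4 and 15.7. Of the hair keratins Krt32 and Krt88 were above the floor in control only. Krt31 was above the floor in Cbs null only, and Krt33a, Krt33b, Krt34, Krt35, Krt36, Krt82 and Krt86 were below it on both arrays. A probe set annotated to Krt14 and Krt17 together, left out because it has several symbols, read 8.3 and 13.5.

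Proteins of the junctions that anchor keratin filaments were mixed in direction. Of 19 such genes on the array 10 were bright, 4 with a ratio above 0 and 6 below, with a median of -0.09 against 0.02 for all bright genes. Dsp, desmoplakin, which ties keratins to desmosomes, had a log2 ratio of 0.32, and Ppl, periplakin, had 0.50. Plec, plectin, which links keratins to hemidesmosomes, had -0.11. The desmosomal cadherin Dsc2 read 146.7 and 55.6, 2.64-fold lower, and counted as bright only through its control value. It was the only one of the 10 at least 2-fold apart, where 0.283% of all bright genes were at least 2-fold lower. Other intermediate filaments differed little. Vim of mesenchymal cells had a log2 ratio of 0.01 and Des of muscle -0.19, and the 4 bright members had a median of -0.09. Of a list of regulators of keratin genes and epithelial cells 4 of 19 were bright, 1 above 0 and 3 below, with a median of -0.15. The 1 above, Esrp1, counted as bright only through Cbs null. The epithelial factors Klf5 and Klf4 had -0.28 and -0.29, and Elf3 had -0.02. Among dim members above the floor on both arrays, Tfap2c, Ehf, Esrp2 and Grhl2 were higher, at 1.13, 0.53, 0.14 and 0.10. Grhl1 and Tfap2a were lower, at -0.60 and -0.02. Tfap2c read 15.9 and 34.8, near the floor, and 1.98% of all dim genes were at least 2-fold higher. Of 23 cornified envelope genes 3 were bright and 11 were below the floor on both arrays. Dmkn, dermokine, was 2.21-fold lower, from 825.3 to 373.1, Krtdap had -0.75 and Sprr2f, a uterine epithelial member of the small proline-rich family, had 0.11. Lor and Ivl, loricrin and involucrin of the epidermal envelope, were dim, at 19.6 and 27.3, and at 1.4 and 1.8.

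**Figure D4:**
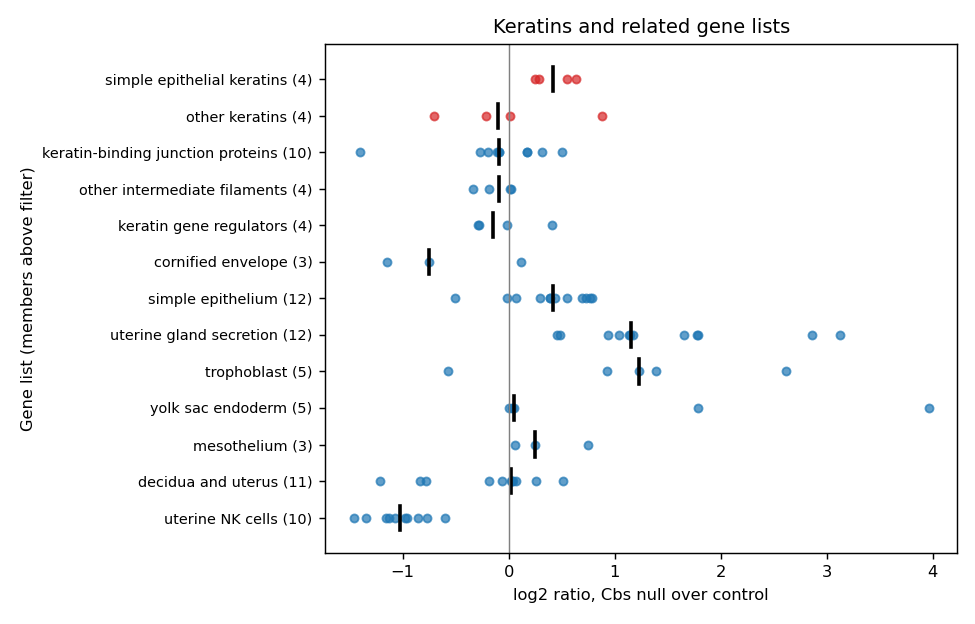
Log2 ratio of Cbs null over control for the bright members of the simple epithelial keratins, the other keratins and 11 related lists (points), with the median of each (bar) and the number of members in brackets. Simple epithelial keratins had a median of 0.42, close to the 0.41 of other simple epithelium genes, and keratin-binding junction proteins had -0.09.

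Several cell types of an implantation site make Krt8 and Krt18. Their marker genes were higher, nearly level or lower in Cbs null, depending on the gene. Of 21 other simple epithelium genes 12 were bright, 10 of them above 0, with a median of 0.41, between -0.51 and 0.78. The signals of the 21 summed to 3086.9 in control and 4408.4 in Cbs null, and none was below the floor on both arrays. The brightest were Cd24a at 0.78 and Spint2 at 0.44, and Lsr counted as bright only through Cbs null. Epcam, an epithelial adhesion molecule, had a log2 ratio of 0.39 and Cldn3, a tight junction claudin, had 0.77, but Cdh1, E-cadherin, had -0.02, which is 0.65 under Krt18. Of 15 genes of uterine gland secretion 12 were bright, all above 0, and 9 were at least 2-fold higher, against 0.622% of all bright genes. The list was chosen with earlier results of these data known, so this count describes the list and tests nothing. The list had a median of 1.15 and a summed signal of 7428.2 in control and 26192.7 in Cbs null. Spink1, a trypsin inhibitor, had the highest ratio, 3.12, followed by the gland proteinases Prss28 at 2.86 and Prss29 at 1.78 and by Ttr at 1.78. Of the 9, Cxcl17, Calb1 and Ttr were under 70.5 in control and counted as bright only through Cbs null. The gland factor Foxa2 read 42.1 and 57.5, and the dim gland gene Cxcl15 was lower, at 30.2 and 20.1 (log2 ratio -0.59). The ratios of Krt8 and Krt18 were smaller than the median of this list.

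Markers of the conceptus were partly higher on the same array. Of 14 trophoblast genes 5 were bright, 4 above 0, with a summed signal of 632.2 over the 14 in control and 1250.7 in Cbs null. Tpbpa of the spongiotrophoblast had a log2 ratio of 1.39, Ceacam11 had 2.62 and Prl2b1 1.23, but Eomes, a factor shared with natural killer cells, was lower, from 145.7 to 97.8 (log2 ratio -0.58). Of the 4 bright genes above 0, Ceacam11, Prl2b1 and Prl4a1 were under 70.5 in control and counted as bright only through their Cbs null value. The dim Ascl2, Plac1 and Hand1 were not higher, at 24.4 and 24.4, 23.7 and 20.1, and 21.5 and 19.6. Ceacam12 and Psg17 were above the floor in Cbs null only. Cdx2, Elf5, Esx1 and Peg10 were below the floor on both arrays. Of 19 yolk sac endoderm genes 5 were bright, all above 0, with a summed signal of 1418.3 and 1872.3 and a median of 0.05. Afp had 3.96 and Ttr 1.78, and both Afp and Ttr counted as bright only through Cbs null. Ttr is also a member of the gland secretion list, so the same value is counted in both lists. The other 3 bright members, Rbp4, Sox17 and Gata6, lay between 0.00 and 0.05, and the dim Apoa2 was 2.32-fold lower, from 43.9 to 18.9. Of 5 mesothelium genes 3 were bright. Krt19, itself a simple keratin of the family followed here, is among them, and the median of 0.25 is its own ratio. Wt1 had 0.06, and Upk3b, at 69.7 and 116.9, counted as bright only through Cbs null. In bulk tissue a larger share of a cell type and more RNA per cell cannot be told apart, and the part of each of these cell types in the keratin ratios was not tested.

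Markers of the tissue itself were present on both arrays. Of 14 decidual and uterine genes 11 were bright, with a median of 0.02 and a summed signal of 12420.7 in control and 11106.5 in Cbs null. Prl8a2, a decidual prolactin, read 2542.7 and 3633.6, and Bmp2, a growth factor of decidualization, read 597.0 and 258.0. Tdo2 was also lower, at 3129.5 and 1750.3 (log2 ratio -0.84), as was Fst, at 1838.3 and 1071.8 (log2 ratio -0.78). Of the 11 bright genes 6 had a ratio above 0 and 5 below. Of 11 uterine natural killer cell genes 10 were bright, all below 0, with a median of -1.02 and a summed signal of 18864.0 and 8627.1. A ratio below 0 was found for 3180 of all 7079 bright genes. Of the 10 genes 5 were at least 2-fold lower, against 0.283% of all bright genes. This list too was chosen with earlier results of these data known, so the counts describe the list and test nothing. Ncr1, an activating receptor that marks natural killer cells, was not bright, and it went the other way, from 56.4 to 67.5 (log2 ratio 0.26). Il2rb counted as bright only through its control value. The largest differences were those of the granzymes Gzmc, Gzmd, Gzma and Gzme, at -1.46, -1.35, -1.16 and -1.13. The simple keratins stood higher on the array on which most of these genes stood lower, and a link between them was not tested.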

How the data were processed

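The authors deposited an intensity per probe set, unlogged, for each array. GCOS 1.4 is the software named, per the submitters' processing notes, while its algorithm, the detection calls and the build behind the probes were not given in the sources used. With 2% trimmed from each end, the mean of the 22690 signals was 200.08 for control and for Cbs null, so no further scaling was applied. The 64 control probe sets were set aside. The number of arrays limits the precision.

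Gene names came from the platform annotation, updated by gene identifier through a RefSeq table of GRCm38.p6. Of 20380 probe sets with a single symbol 20351 matched. Values under 14.3 were raised to it, and a gene took the values of the probe set with its highest mean signal. Log2 ratios, Cbs null over control, were computed with Python 3.11.15 and pandas 2.3.3, and the computation was tested on simulated data. The simulated differences were planted only in bright probe sets and were larger than those of the bright keratins. That test therefore does not cover dim signals or differences under 2-fold.

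Named genes were all simple keratins, bright keratins, keratins 2-fold apart and Krt84, and of each related list the largest or brightest members. Other names were chosen after their values were seen, as were the promoter motifs. The members and lists were chosen with earlier results of these data known. Alternatives covered normalization, centring, loess with a span of 0.3, floor, pseudocount, filter and probe set choice. A value was said to hold where it moved by less than 0.30, the SD between probe sets of a gene, and a count where it stayed within 1.5 times.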

Additional observations from a re-analysis of the deposited data

How the results depend on the processing

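Under 10 alternatives the median log2 ratio of the simple keratins stayed above 0, between 0.25 and 0.55. Their difference from the cornified and hair keratins lay between 0.25 and 0.88. The simple group was not the same in every setting. With a filter on signal 4 simple keratins remained, without Krt20. When probe sets with suffixes for several transcripts were left out 3 remained, without Krt8 and Krt7. The median there, 0.25, was the ratio of Krt19, and Krt8 could not be checked. Without a filter on signal the cornified and hair median was at or near 0. There the difference mostly restates the simple keratin median and is no separate check of the contrast. With only bright genes kept, the cornified and hair median was -0.46 and the difference 0.88, over 4 and 2 genes, and the counts of keratins at least 2-fold higher and lower were 0 and 0. These counts, 2 and 3, depended on the treatment of dim signals. They were 3 and 10 when the floor was lowered to the 10th percentile, 0 and 0 when it was raised to the 40th, 1 and 3 with a pseudocount, 2 and 2 with the loess trend removed, 1 and 1 with the median over probe sets, and 1 and 2 when probe sets with suffixes for several transcripts were left out. The 3 lower with a pseudocount were Krt13, Krt71 and Krt88, and Krt5, Krt6a and Krt14 then had -0.74, -0.81 and -0.68. The alternatives themselves change which dim values count. Of 131 values for the 14 named keratins 115 moved by less than 0.30, 16 moved by more, all of them in Krt5, Krt6a, Krt12, Krt14, Krt20 or Krt83, and 3 changed sign, all in Krt80. Many of the 115 were fixed in advance. A change of floor, filter or probe set choice cannot move a gene with 1 probe set and both signals above the floor. Krt18, for example, had the same 0.64 in each of those settings, so the count of 115 is no measure of how firm the ratios are. No paired analysis was possible because each group has 1 array, and no array could be left out for the same reason. Signal over background limits every keratin under 70.5.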
